A study of Mus musculus with 8 samples.

Results

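Liver transcripts 90 min after a growth hormone (GH) pulse were compared with those of livers that had received no GH, over 10947 of the 24197 genes in the deposited table (45.2%). These genes had a mean level of 0.5 FPKM or more over the gene body in at least 1 of the 2 groups, where FPKM is a read number relative to exon length and to all mapped reads. Of them, 10266 reached that level in both groups, 298 at GH 90 min alone and 383 in Hypox alone. The 3 genes just inside the limit had 0.5005 to 0.5007 FPKM in Hypox and the 3 just outside had 0.4997 to 0.4998 FPKM.

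All animals were male mice of the outbred CD-1 stock whose pituitary had been removed at 7 weeks of age and whose livers were taken at 11 weeks. The GH 90 min group received rat GH once, intraperitoneally, in a dose of 125 ng for each g of the animal, and was killed 90 min later, and the Hypox group received no GH. Groups killed 30 min and 240 min after the same dose entered the fit for its estimate of spread. The labels call the Hypox animals untreated in one place and vehicle-treated in another. Each group held 2 libraries, each from a pool of 4 individuals, so p-values measure the spread between pools. As model animals, hypophysectomized mice lack every pituitary hormone and not GH alone, and the GH 90 min group shares this with the Hypox group.

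GH binds its receptor on hepatocytes and activates the kinase JAK2, which phosphorylates the transcription factor STAT5b. STAT5b then drives genes such as Igf1 and, in a feedback loop, inhibitors of JAK signalling of the CIS and SOCS family. The liver also makes glucose during fasting, through enzymes whose genes are controlled by forkhead factors of the FOXO class, glucagon and insulin. The libraries held total RNA with part of its ribosomal RNA removed, so introns could be measured beside exons. Intronic reads come mostly from transcripts that are not yet spliced, and exonic reads mostly from mature RNA.

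The promoter windows below are those of genes that moved and that hold a motif searched for, and they are shown so that the reader can see it. Each runs from 250 bases before to 50 bases after a RefSeq start in build GRCm38.p6, written along the gene's own strand. Cish (chr9:107296409-107296708, plus strand) and Keg1 (chr19:12695540-12695839, plus strand) rose and each hold 2 matches to TTCNNNGAA, the motif known for STAT5, in capitals. F11 (chr8:45261982-45262281, minus strand) and Cyp3a11 (chr5:145879805-145880104, minus strand) had lower intronic reads, and each hold 1 match to the forkhead motif TGTTTAC or its reverse complement GTAAACA, in capitals. TTCNNNGAA also occurs in windows of Bcl6 (3 matches in 1 window) and Socs3, which were not called, and of Nr0b2, Per1 and Dbp, which fell in introns. The windows of Igf1, Onecut1 and Aacs, which rose, hold 0 matches to it. The forkhead motif also occurs in windows of genes that rose, namely Aacs, Ugt2b38, Foxa1, Fmo2, Igfals and Prlr.
Cish: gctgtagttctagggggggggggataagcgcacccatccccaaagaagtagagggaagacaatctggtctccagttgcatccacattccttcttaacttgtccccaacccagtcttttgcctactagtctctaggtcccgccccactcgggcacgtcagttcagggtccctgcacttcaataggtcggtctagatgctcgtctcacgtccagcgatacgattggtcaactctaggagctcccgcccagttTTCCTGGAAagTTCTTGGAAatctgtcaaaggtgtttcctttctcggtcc
Keg1: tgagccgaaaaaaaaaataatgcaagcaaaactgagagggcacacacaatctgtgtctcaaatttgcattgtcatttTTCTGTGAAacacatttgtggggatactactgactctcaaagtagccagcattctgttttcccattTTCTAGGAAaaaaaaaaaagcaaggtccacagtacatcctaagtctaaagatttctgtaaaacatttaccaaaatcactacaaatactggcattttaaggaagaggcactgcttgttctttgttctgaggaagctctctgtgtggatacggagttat
F11: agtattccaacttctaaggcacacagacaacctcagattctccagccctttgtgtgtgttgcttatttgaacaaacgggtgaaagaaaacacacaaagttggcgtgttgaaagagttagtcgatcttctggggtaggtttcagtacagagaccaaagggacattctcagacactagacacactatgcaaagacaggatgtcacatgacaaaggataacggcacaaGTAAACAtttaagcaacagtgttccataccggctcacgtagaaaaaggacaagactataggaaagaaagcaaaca
Cyp3a11: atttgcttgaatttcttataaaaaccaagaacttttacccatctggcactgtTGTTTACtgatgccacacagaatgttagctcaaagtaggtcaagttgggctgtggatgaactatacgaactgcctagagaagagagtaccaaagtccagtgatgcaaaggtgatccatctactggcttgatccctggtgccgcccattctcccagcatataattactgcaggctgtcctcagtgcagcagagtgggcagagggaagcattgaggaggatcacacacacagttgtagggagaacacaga

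In Cish the matches start 0 and 11 bases after the annotated start of the gene, and in Keg1 they start at -173 and -107. Motifs were counted on both strands, which for TTCNNNGAA and CACGTG is 1 search because each reads the same on either strand, and matches of the 3 motifs could overlap. TTCNNNGAA was present in 11.4% of 376 promoter windows of genes with higher intronic reads, in 4.18% of 478 windows of genes with lower intronic reads and in 8.3% of all 32851 windows, or 6.94% of the windows of the genes described here. The forkhead motif was present in 3.19% of windows of the genes with higher and 4.81% of windows of the genes with lower intronic reads, against 3.65% of all windows and 2.77% of the windows of the genes described here. The E-box CACGTG was present in 12.5% of windows of the genes with higher intronic reads and in 48 of the 478 windows of those with lower ones, against 7.15% of all windows and 10.3% of the 10114 windows of the genes described here. Of the genes with higher intronic reads 289 of 383 had a window, and of those with lower intronic reads 346 of 469 had one. These shares are a description, and a window without a match says only that these letters are not in it.

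The GH 90 min libraries held 32083366 and 15935303 mapped reads, and the Hypox libraries 34452570 and 32802312. Which pool is number 1 or 2 cannot be told from the table, so the 2 libraries of a group are called deeper and shallower by their reads, and values are given in that order. The labels give 1 Hypox pool another library-name prefix than the other 7 libraries. Hepatocyte markers summed to 36600 and 37300 CPM (reads relative to all mapped reads of the library, with a scaling between libraries) at GH 90 min and to 35900 and 37300 CPM in Hypox. Kupffer cell and macrophage markers summed to 109 and 80.1 CPM at GH 90 min and to 88.7 and 112 CPM in Hypox, and sinusoidal endothelial markers to 173 and 187 CPM and to 202 and 195 CPM. Neutrophil markers summed to 18.8 and 13.2 CPM at GH 90 min, against 10.5 and 12 CPM in Hypox, and red blood cell markers to 146 and 101 CPM, against 112 and 95.3 CPM. The median exonic log2 fold change was 0.71 over 4 neutrophil markers tested and 0.44 over 7 red blood cell markers, and their part in the results below was not tested. Of the 7 red blood cell markers 0 were called in exons. In introns 3 were tested, with a median log2 fold change of 0.8, and 0 rose and 1 fell. The fall was that of Alas2, the heme synthesis enzyme of red cells, by 1.54 on the log2 scale (limma adjusted p = 0.00177). Adipocyte and pancreatic acinar markers summed to at most 0.144 CPM in any of the 4 libraries. In bulk liver, fewer cells of a type and less RNA per cell cannot be told apart.

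At 90 min the response was wider in intronic than in exonic reads. Of 9675 genes tested in introns, 383 rose and 469 fell (3.96% and 4.85%), with a limma adjusted p under 0.05. Of 10560 tested in exons, 77 rose and 28 fell (0.729% and 0.265%). Among these, 15 of the rises were of genes that reached 0.5 FPKM only at GH 90 min. Of the falls, 2 were of genes that reached it only in Hypox. Over all genes tested, members or not, the calls were 3.28% higher and 4.3% lower in introns and 0.63% higher and 0.213% lower in exons. Of 9670 genes tested in both, 63 rose and 14 fell in both kinds of read, 320 rose and 455 fell in introns without a call in exons, and 0 were called in opposite directions. In exons alone 8 rose and 7 fell. The 469 intronic falls had a median log2 fold change of -1.15 in introns and -0.25 in exons, and the 383 intronic rises medians of 1.04 in introns and 0.46 in exons. These medians describe genes chosen on their intronic values. Across the 9670 genes the exonic and intronic log2 fold changes had a Pearson r of 0.64, where both kinds of read come from the same 4 libraries.

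**Figure D1:**
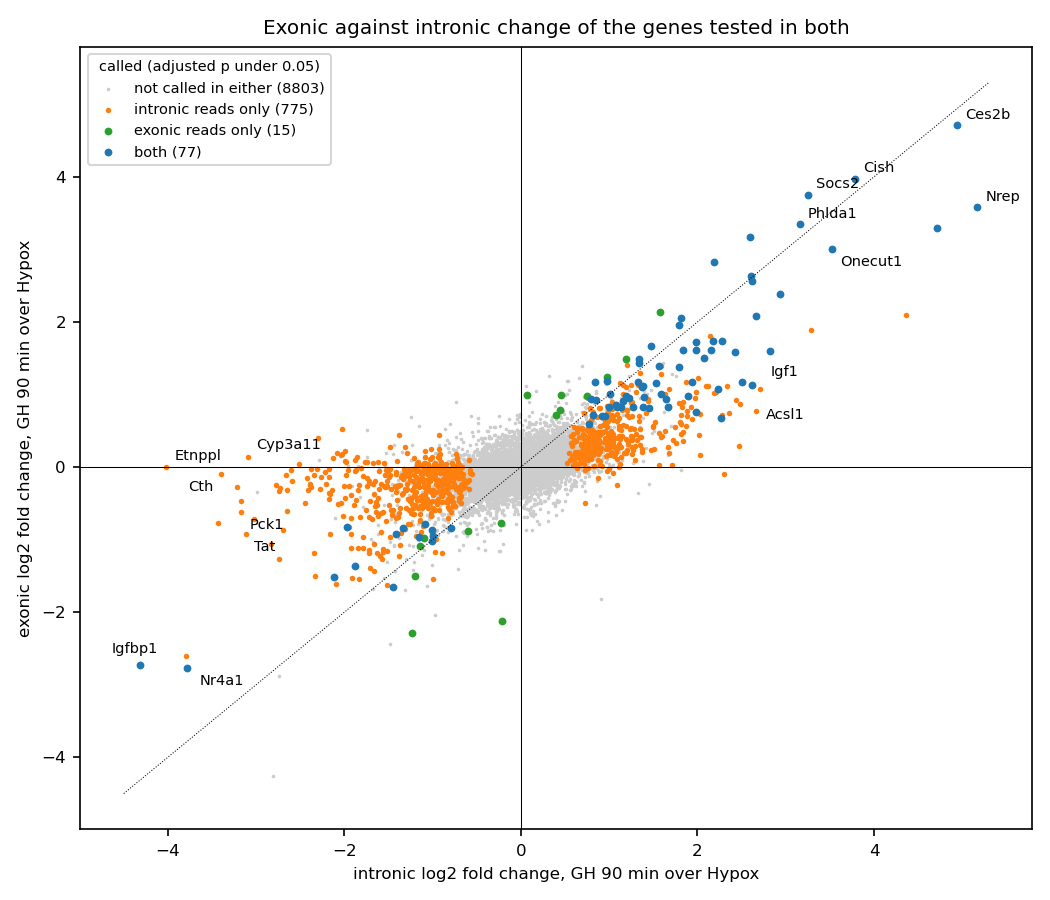
Log2 fold change of GH 90 min over Hypox in exonic reads (vertical axis) against intronic reads (horizontal axis), 1 point for each of 9670 genes, coloured by which limma test called it, with a dotted line of equal change. Rises such as Cish and Ces2b lie near the dotted line, and others, such as Igf1 and Acsl1, lie below it. Intronic falls such as Etnppl, Cth and Cyp3a11 lie close to 0 on the exonic axis, while Igfbp1 and Nr4a1 lie well below 0. The exonic change was of smaller size than the intronic one in 363 of 383 intronic rises and 461 of 469 intronic falls.

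Calls depended on single libraries because each group has 2. In introns 115 rises and 118 falls were kept with each of the 4 libraries left out in turn, and those 233 were also kept under every other alternative tried. In exons 7 rises and 0 falls were kept in the same way. These were the feedback and growth genes Cish, Myc, Phlda1 and Onecut1 and the genes Nrep, Aacs and Ces2b. No called gene changed its direction under any alternative. Below, an intronic call stands without each library unless a range of adjusted p-values without 1 library is given.

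Some feedback inhibitors and known targets of GH and STAT5 rose at 90 min, Cish, Socs2, Myc and Onecut1 in both kinds of read. Of 19 genes of that list 6 rose and 0 fell in exons, with a median log2 fold change of 0.55 against -0.01 for all described genes. Of 16 tested in introns 6 rose and 0 fell, with a median of 0.35 against 0.01. Among the exonic rises, Cish, Socs2, Myc and Socs1 had 0.438, 0.463, 0.4 and 0.378 FPKM in Hypox. They are described here only through their GH 90 min level, so their rise is partly built into the choice of genes. Cish encodes CIS, which blocks STAT5 docking at the receptor. It had 7.82 and 8.42 intronic CPM at GH 90 min, against 0.195 and 1.1 CPM in Hypox (13.8-fold, log2 fold change 3.78 ± 0.51, SE, n = 2 libraries a group in this and every later fold change, limma adjusted p = 0.0017). Its exonic reads were at 15.7 and 14.9 CPM at GH 90 min, against 0.546 and 1.38 CPM in Hypox. The 2 groups did not overlap in either kind of read, a separation in which both GH 90 min libraries lay above both Hypox libraries for 25.0% of all genes in introns and 18.6% in exons. Socs2, an inhibitor that limits GH-driven growth, had 3.08 and 3.64 intronic CPM at GH 90 min and 0.195 and 0.346 CPM in Hypox (9.5-fold, limma adjusted p = 0.00155). In exons Socs2 also rose (limma adjusted p = 0.0155), a call lost without each of the 4 libraries (0.0776 to 0.165). Onecut1, which encodes the liver factor HNF6, had 107 and 134 intronic CPM at GH 90 min, against 8.24 and 12.9 CPM in Hypox (limma adjusted p = 4.58e-05). Its log2 fold change was 3.52 ± 0.23 in introns, and its exonic minus its intronic change was -0.52 ± 0.24 (limma adjusted p = 0.449).

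Igf1 and Igfals, the genes of the circulating growth factor and of the subunit that keeps it in serum, rose in introns, while their exonic changes did not pass the test. Igf1 had 272 and 298 intronic CPM at GH 90 min, against 28.7 and 65.9 CPM in Hypox (6.53-fold, limma adjusted p = 0.000727). In exons it had 97.4 and 98.1 CPM at GH 90 min and 43.1 and 49.5 CPM in Hypox (2.11-fold, limma adjusted p = 0.135). The libraries of the groups did not overlap in exons either. Its exonic change minus its intronic change was -1.63 ± 0.41 on the log2 scale and did not pass the test of that difference (limma adjusted p = 0.152). Igf1 lies on chromosome 10 from 87323856 to 87378515 in mm9. Igfals rose in introns by 2.12 ± 0.44 (limma adjusted p = 0.0134), a call lost when the shallower GH 90 min library (0.106) or the deeper Hypox library (0.0874) was left out and kept otherwise (0.0172 and 0.0431). In exons its change was 1.12 ± 0.23 (limma adjusted p = 0.0647).

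In the list of GH receptor, JAK and IGF axis genes, 2 of 19 tested rose in introns, Ghr and Prlr, and 3 fell, Igfbp1, Igfbp2 and Igf2r, and of 20 tested in exons 0 rose and 1 fell. The prolactin receptor gene Prlr had 193 and 175 intronic CPM at GH 90 min, against 51.8 and 81.5 CPM in Hypox (2.82-fold, limma adjusted p = 0.0025). The GH receptor gene Ghr had 2420 and 3030 intronic CPM at GH 90 min, against 633 and 1140 CPM in Hypox (limma adjusted p = 0.0272, and 0.0486 to 0.193 without 1 library, where the call stood only without the shallower Hypox library). In exons Ghr was at 164 and 174 CPM at GH 90 min and at 138 and 157 CPM in Hypox (limma adjusted p = 0.679). Igfbp1, whose product binds IGFs in serum and which insulin turns down, fell to 0.488 and 0.179 intronic CPM at GH 90 min, against 8.35 and 7.56 CPM in Hypox, which is 16 and 3 reads against 299 and 240 (log2 fold change -4.31 ± 0.38, limma adjusted p = 0.000188). Its exonic reads fell too, to 3.18 and 2.28 CPM at GH 90 min, against 18.7 and 18.1 CPM in Hypox (limma adjusted p = 0.013), and that call was lost without each of the 4 libraries (0.0687 to 0.148). Igfbp2, the gene of another IGF binding protein, fell in introns to 14.1 and 14.9 CPM at GH 90 min, against 103 and 180 CPM in Hypox (limma adjusted p = 0.00366). In exons Igfbp2 stood at 193 and 214 CPM at GH 90 min and 229 and 265 CPM in Hypox (limma adjusted p = 0.564). The fall of Igf2r in introns was -0.76 ± 0.19 (limma adjusted p = 0.0366) and was lost without each library (0.0786 to 0.245).

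**Figure D2:**
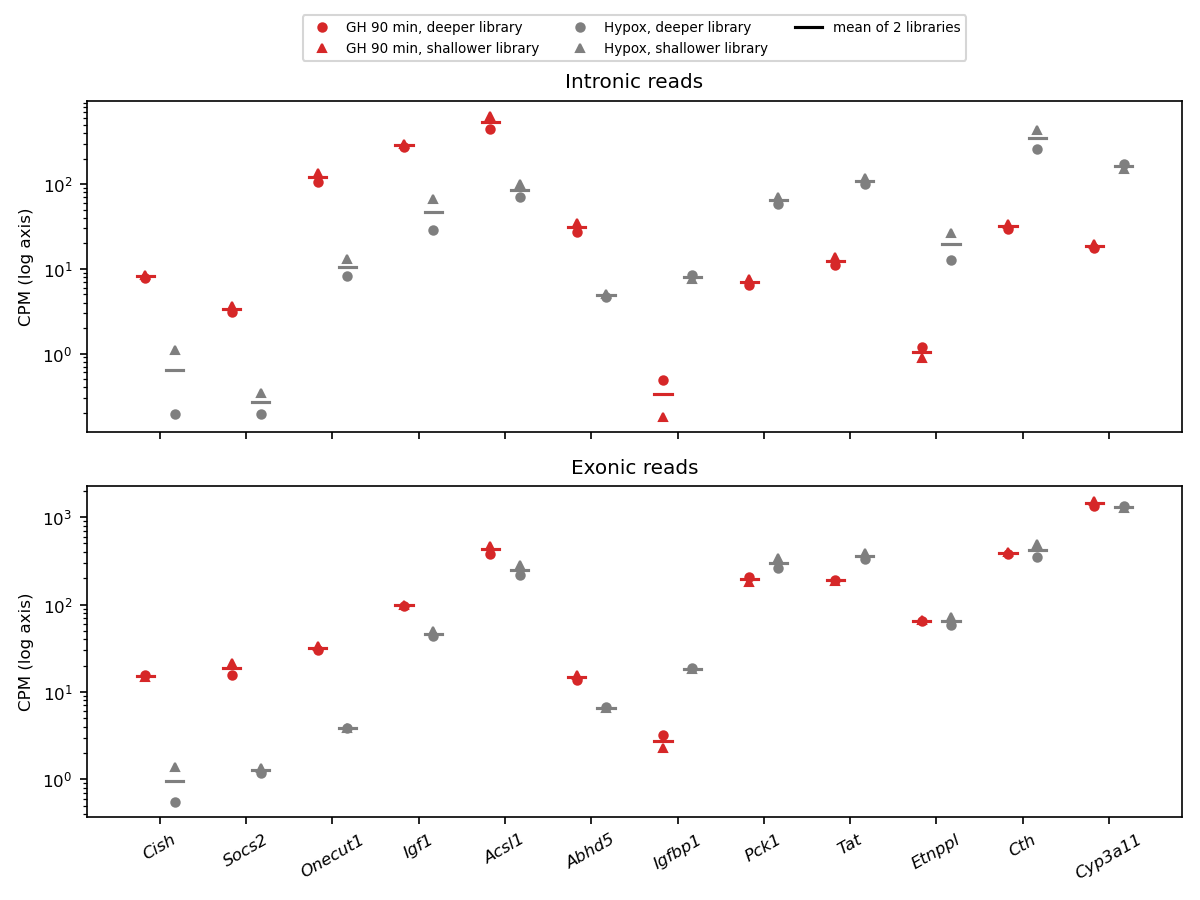
CPM of 12 genes in each library on a log axis, intronic reads above and exonic reads below, with GH 90 min (red) left of Hypox (grey), circles for the deeper and triangles for the shallower library and a bar for their mean. Cish, Socs2 and Onecut1 are higher at GH 90 min in both panels, while Etnppl, Cth and Cyp3a11 are lower in introns and close to Hypox in exons.

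Calls among early response genes went both ways. Of 18 immediate early and MAPK feedback genes tested in introns 3 rose, namely Phlda1, Myc and Spred1, and 2 fell, Errfi1 and Zfp36l1, both of these falls lost without some libraries (0.0172 to 0.0611 and 0.0332 to 0.211). The median log2 fold change of that list was 0.07 in introns and -0.01 in exons, where 3 of 28 rose. Myc, which drives growth and ribosome synthesis, had 11.2 and 7.38 exonic CPM at GH 90 min, against 0.632 and 1.32 CPM in Hypox (9.03-fold, limma adjusted p = 0.00311). Phlda1, a pleckstrin homology domain gene, had 107 and 103 exonic CPM at GH 90 min, against 9.05 and 11.6 CPM in Hypox (10.2-fold, limma adjusted p = 1.56e-05). Both genes stood apart from Hypox in every library.

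Beyond the known targets, the intronic rises of greatest size among the called genes with separated groups were those of Nrep, Ces2b and Ugt2b38. In Hypox they had 0.449, 0.0475 and 0.0318 FPKM. They too are described only through their GH 90 min level, so their rise is partly built into the choice of genes. Nrep, a gene first described in neurons, had 36 and 37.9 intronic CPM at GH 90 min, against 0.531 and 1.57 CPM in Hypox (36.1-fold, limma adjusted p = 4.58e-05). The carboxylesterase gene Ces2b had 124 and 50 intronic reads at GH 90 min, against 1 and 0 in Hypox, and its log2 fold change of 4.94 ± 0.56 (limma adjusted p = 0.000728) depends on the pseudocount. Ugt2b38, a UDP-glucuronosyltransferase gene, had 2.72 and 6.99 intronic CPM at GH 90 min, against 0 and 0.189 CPM in Hypox (limma adjusted p = 0.00155). Ces and Ugt2b genes have close copies that may share reads, so the values of these genes are uncertain. Aacs, which activates acetoacetate for lipid synthesis, had 90.3 and 73.5 intronic CPM at GH 90 min and 16.2 and 6.87 CPM in Hypox (7.65-fold, limma adjusted p = 0.00078). Acsl1, the main liver enzyme that links fatty acids to coenzyme A, had 447 and 636 intronic CPM at GH 90 min, against 70.9 and 100 CPM in Hypox (6.31-fold, limma adjusted p = 0.000188). Its exonic reads were at 381 and 473 CPM at GH 90 min and 218 and 282 CPM in Hypox (1.71-fold, limma adjusted p = 0.118).

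Genes of lipid release and storage were split. Abhd5, the co-activator of the lipase ATGL, had 27.3 and 34.3 intronic CPM at GH 90 min, against 4.69 and 5.1 CPM in Hypox (6.15-fold, limma adjusted p = 6.54e-05). Fitm2, which helps form lipid droplets, rose in introns by 1.98 ± 0.33 (limma adjusted p = 0.00488). G0s2, an inhibitor of ATGL with few intronic reads, fell in exons to 1.28 and 0.799 CPM at GH 90 min, against 4.97 and 5.06 CPM in Hypox (limma adjusted p = 0.0204, lost without each library at 0.0687 to 0.21). The droplet coat gene Plin2 fell in introns by 1.03 ± 0.22 on the log2 scale (limma adjusted p = 0.0157, and 0.0142 to 0.146 without 1 library, where it stood only without the deeper GH 90 min library). In exons Abhd5 and Fitm2 also rose (limma adjusted p = 0.0266 and 0.042), and both calls were lost without each library (0.101 to 0.261 and 0.0953 to 0.322).

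Of 21 gluconeogenesis genes and FOXO targets 10 fell and 0 rose in introns, with a median log2 fold change of -0.82 against 0.01 for all described genes, and 6 to 7 fell with 1 library left out. In exons 2 of the same 21 fell, Igfbp1 and Trib3, with a median of -0.24. Pck1, the rate-limiting enzyme of gluconeogenesis, had 6.47 and 7.58 intronic CPM at GH 90 min, against 58.4 and 69.7 CPM in Hypox (log2 fold change -3.17 ± 0.25, limma adjusted p = 7.89e-05). Its exonic reads were at 207 and 181 CPM at GH 90 min and 261 and 342 CPM in Hypox (-0.63 ± 0.22, limma adjusted p = 0.332). The groups were separate in both kinds of read, but the exonic difference was small beside the intronic one. Tat, which breaks down tyrosine and is a classical glucocorticoid target, had 11.1 and 13.8 intronic CPM at GH 90 min, against 99.1 and 118 CPM in Hypox (-3.12 ± 0.24, limma adjusted p = 7.89e-05). In exons it had 193 and 184 CPM at GH 90 min and 329 and 391 CPM in Hypox (-0.93 ± 0.23, limma adjusted p = 0.123). Ppargc1a, a co-activator of fasting genes, had 4.03 and 2.93 intronic CPM at GH 90 min and 11.4 and 19.3 CPM in Hypox (limma adjusted p = 0.00232). Its exonic values overlapped, at 7.04 and 7.5 CPM at GH 90 min and 3.85 and 10.5 CPM in Hypox. Sds, which turns serine into pyruvate, and Sik1, a kinase that restrains CREB co-activators, fell in introns by 2.39 ± 0.23 and 1.57 ± 0.24 on the log2 scale (limma adjusted p = 0.000304 and 0.00306).

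The intronic falls of G6pc, Fbp1, Creb3l3 and Irs2 depended on single libraries. G6pc, the last enzyme of glucose release, had 1.98 and 2.21 intronic CPM at GH 90 min, against 4.8 and 14 CPM in Hypox (limma adjusted p = 0.0189, and 0.00524 to 0.149 without 1 library, called only without the deeper Hypox library). In exons it had 8.88 and 4.73 CPM at GH 90 min and 6.18 and 24.7 CPM in Hypox, so that the groups overlapped. Fbp1, the fructose bisphosphatase gene, fell in introns by 0.94 ± 0.20 on the log2 scale (limma adjusted p = 0.0161, called only without the shallower GH 90 min library, range 0.0287 to 0.143). Creb3l3, a liver factor active in fasting, and Irs2, an insulin receptor substrate, fell by 1.21 ± 0.26 and 0.82 ± 0.19 (limma adjusted p = 0.0177 and 0.0243), with ranges of 0.0494 to 0.13 and 0.0743 to 0.172 without 1 library. Pck1 lies on chromosome 2 from 172978574 to 172984754 in mm9, and its window holds 0 matches to the 3 motifs, like those of Tat and Igfbp1.

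Etnppl, Cth and Slc38a4 were among the intronic falls of genes whose exonic change did not pass the test. Etnppl, which degrades phosphoethanolamine, had 1.19 and 0.896 intronic CPM at GH 90 min, against 12.7 and 26.2 CPM in Hypox (log2 fold change -4.02 ± 0.42, limma adjusted p = 0.000437). Its exonic reads were at 64.7 and 65.7 CPM at GH 90 min and 59 and 71.5 CPM in Hypox (0.01 ± 0.22, limma adjusted p = 0.998). The exonic values of the 2 groups overlapped. Cth, which makes cysteine from cystathionine, had 29.8 and 33.5 intronic CPM at GH 90 min and 256 and 434 CPM in Hypox (-3.40 ± 0.45, limma adjusted p = 0.0016). In exons Cth had 376 and 396 CPM at GH 90 min and 346 and 494 CPM in Hypox. Slc38a4, an amino acid transporter gene, fell in introns by 2.73 ± 0.18 on the log2 scale (limma adjusted p = 4.58e-05), with an exonic change of -0.29 ± 0.12 (limma adjusted p = 0.469).

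Genes of glucose uptake, glycolysis and glycogen had more calls in introns than in exons. Of 22 tested 6 fell and 0 rose in introns, with 3 to 5 falls when 1 library was left out, and of 23 tested in exons 2 fell. Gys2, the liver glycogen synthase, had 9.65 and 12.8 intronic CPM at GH 90 min, against 59.2 and 84.9 CPM in Hypox (-2.66 ± 0.27, limma adjusted p = 0.000316). Slc2a2, the liver glucose transporter GLUT2, had 6.41 and 6.93 intronic CPM at GH 90 min, against 27.4 and 48 CPM in Hypox (-2.43 ± 0.23, limma adjusted p = 0.000304). The exonic changes were -0.11 ± 0.16 for Gys2 and -0.16 ± 0.14 for Slc2a2 (limma adjusted p = 0.913 and 0.822). The exonic falls were those of Ppp1r3c, which targets a phosphatase to glycogen, by 1.37 ± 0.26, and of Stbd1, which tethers glycogen to membranes, by 1.09 ± 0.13 on the log2 scale. Both exonic calls (limma adjusted p = 0.047 and 0.00884) were lost without most libraries (0.119 to 0.397 for Ppp1r3c, and 0.0435 to 0.0918 for Stbd1, which stood only without the shallower Hypox library).

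Genes of lipid metabolism were called in both directions in introns. Of 21 genes of fatty acid and triglyceride synthesis 1 rose and 4 fell in introns, and 3 of the falls stood without each library. Dgat2, the last step of triglyceride synthesis, had 17.1 and 15.9 intronic CPM at GH 90 min, against 62.9 and 48.9 CPM in Hypox (limma adjusted p = 0.00135). Gpam, the first step, had 12.9 and 10 CPM at GH 90 min, against 34.6 and 30 CPM in Hypox (limma adjusted p = 0.00155). Of 27 fatty acid oxidation and ketone body genes 3 rose and 4 fell in introns, but 2 rose and 1 fell without the shallower Hypox library. Cpt1a, which brings fatty acids into mitochondria, had 33.1 and 34.8 intronic CPM at GH 90 min and 79.4 and 83.6 CPM in Hypox (limma adjusted p = 0.00343). Its exonic reads were at 118 and 106 CPM at GH 90 min and 116 and 116 CPM in Hypox. Ehhadh, a peroxisomal enzyme gene, rose in introns by 1.09 ± 0.18 (limma adjusted p = 0.00433) while its exonic change was -0.25 ± 0.20 (limma adjusted p = 0.788). Of 19 bile acid and transporter genes 2 rose and 4 fell in introns. The 2 rises numbered 0 without the shallower GH 90 min library and 0 without the deeper Hypox library, and the 4 falls numbered 2 without either shallower library. Slco1a4, a sinusoidal uptake transporter, fell in introns to 24.2 and 22.3 CPM at GH 90 min, against 64.2 and 135 CPM in Hypox (limma adjusted p = 0.00464), and Abcc2, a canalicular export pump, to 78.7 and 103 CPM, against 337 and 258 CPM (limma adjusted p = 0.00294).

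**Figure D3:**
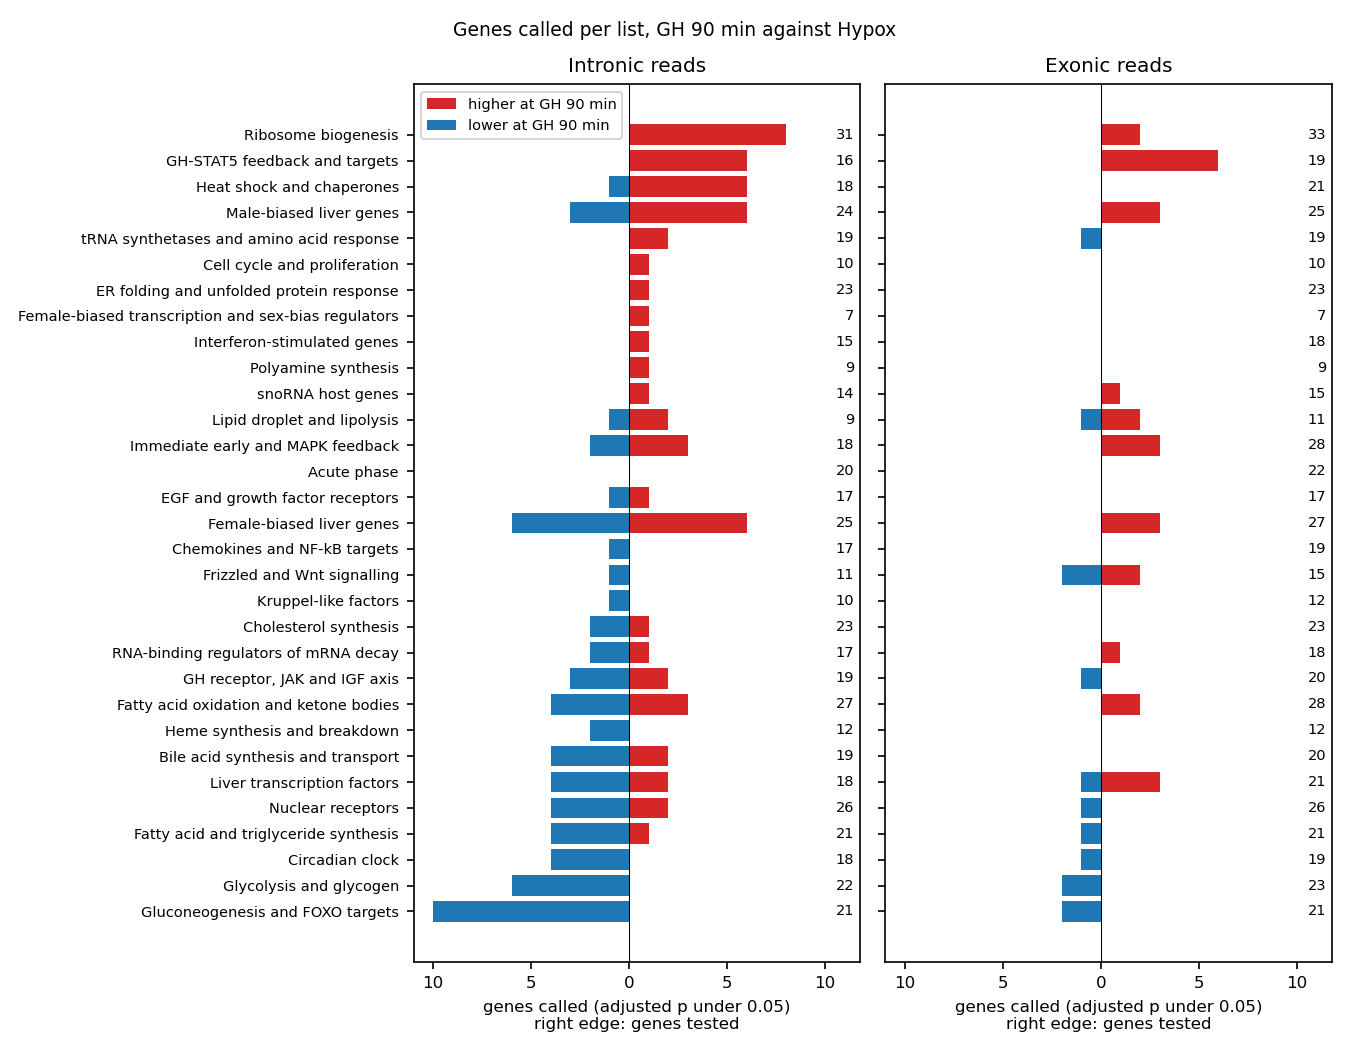
Number of genes called higher (red, to the right) and lower (blue, to the left) at GH 90 min in each of 31 gene lists, for intronic reads on the left and exonic reads on the right, with the number tested at the edge of each panel. Gluconeogenesis and FOXO targets have 10 intronic falls of 21 and glycolysis and glycogen genes 6 of 22, against 2 exonic falls in each list.

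Cytochrome P450 genes, and genes whose level differs between the sexes in mouse liver, moved in both directions in introns. Cyp3a11, an abundant drug-metabolizing P450, had 17.8 and 19.6 intronic CPM at GH 90 min, against 171 and 151 CPM in Hypox (-3.10 ± 0.23, limma adjusted p = 7.05e-05). In exons it had 1360 and 1520 CPM at GH 90 min and 1340 and 1280 CPM in Hypox (0.13 ± 0.18, limma adjusted p = 0.897). Of 24 male-biased genes tested in introns 6 rose and 3 fell, and of 25 female-biased genes 6 rose and 6 fell. The male-biased falls numbered 1 without either shallower library. The female-biased rises numbered 4 without either Hypox library or the deeper GH 90 min library, and the falls 3 without either GH 90 min library or the shallower Hypox library. Keg1, a male-biased acyltransferase family gene, had 133 and 200 intronic CPM at GH 90 min, against 22.8 and 23 CPM in Hypox (7.09-fold, limma adjusted p = 7.05e-05). Cyp4a12a, a male-biased fatty acid hydroxylase, had 153 and 134 intronic CPM at GH 90 min and 46.2 and 38.8 CPM in Hypox (3.38-fold, limma adjusted p = 0.00053). The female-biased Cyp2b13 had 39.5 and 26.9 intronic CPM at GH 90 min, against 303 and 286 CPM in Hypox (limma adjusted p = 0.00354), and its neighbour in family Cyp2b9 had 121 and 120 CPM, against 599 and 492 CPM (limma adjusted p = 0.00598). The female-biased monooxygenase gene Fmo2 went the other way, with 22.4 and 30.6 intronic CPM at GH 90 min and 3.94 and 5.83 CPM in Hypox (5.38-fold, limma adjusted p = 0.00114). Cyp2b, Cyp3a and Cyp4a genes have near-identical copies, and the counting of shared reads was not described.

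The number of calls among ribosome biogenesis and chaperone genes depended on single libraries. Of 31 ribosome biogenesis genes tested in introns 8 rose and 0 fell, with a median log2 fold change of 0.76. That count was 3 without the deeper GH 90 min library, 3 without the shallower one, 10 with the deeper Hypox library left out and 1 with the shallower Hypox library left out. Nop58, a protein of box C/D snoRNPs, had 24.3 and 19.5 intronic CPM at GH 90 min, against 8.43 and 8.09 CPM in Hypox (2.61-fold, limma adjusted p = 0.00476). Of 18 heat shock and chaperone genes 6 rose and 1 fell in introns. The number of rises was 6 without the deeper GH 90 min library, 0 without the shallower one, 0 with the deeper Hypox library left out and 1 with the shallower Hypox library left out. Hspa8, the constitutive HSP70, had 10.5 and 13.6 intronic CPM at GH 90 min and 6.03 and 6.46 CPM in Hypox (limma adjusted p = 0.0115, and 0.0232 to 0.12 without 1 library). Xbp1, a factor of the unfolded protein response, had 42.6 and 31.6 intronic CPM at GH 90 min, against 16.3 and 15.8 CPM in Hypox (limma adjusted p = 0.00353). No other of 23 genes of that list was called in introns.

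Among regulators of liver transcription, Foxa1 rose and Nr4a1 fell with calls that stood without each library in introns. Foxa1, a pioneer factor of liver genes, had 1.56 and 2.39 intronic CPM at GH 90 min, against 0.447 and 0.283 CPM in Hypox (limma adjusted p = 0.00361), and 14 and 18.7 exonic CPM against 4.17 and 6.57 CPM. Nr4a1, an orphan nuclear receptor induced by glucagon signalling, had 0.58 and 1.02 intronic CPM at GH 90 min, against 7.62 and 18.4 CPM in Hypox (-3.78 ± 0.53, limma adjusted p = 0.00221). In exons it fell to 2.12 and 2.28 CPM at GH 90 min, against 15 and 16.3 CPM in Hypox, with a limma adjusted p of 0.04996 that was lost without each library (0.188 to 0.319). Of 18 liver transcription factors tested in introns 2 rose and 4 fell, and the falls, of Hnf4a, Nr0b2, Prox1 and Tbx3, numbered 3 without the deeper and 0 without the shallower GH 90 min library, and 0 without the deeper and 1 without the shallower Hypox library. Of 18 clock genes 0 rose and 4 fell in introns, where Cry2, a repressor of the clock, had 7.82 and 8.12 CPM at GH 90 min, against 16.3 and 17.9 CPM in Hypox (limma adjusted p = 0.0035). The other clock falls, of Per1, Dbp and Hlf, had adjusted p-values of 0.0767 to 0.168, 0.0523 to 0.146 and 0.0299 to 0.155 without 1 library.

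The 22 acute phase genes tested in exons had a median log2 fold change of -0.05 and the 20 tested in introns one of -0.11. Stat5b itself was at 45.4 and 44.6 intronic CPM at GH 90 min and 42.9 and 48.2 CPM in Hypox (-0.02 ± 0.20, limma adjusted p = 0.977). The inhibitor Socs3 had 50.1 and 26 exonic CPM at GH 90 min and 22.1 and 27.4 CPM in Hypox (limma adjusted p = 0.562), so that the groups overlapped. Bcl6, a repressor that binds STAT5 sites, also overlapped in introns, at 17.3 and 21.4 CPM at GH 90 min and 20 and 14 CPM in Hypox. Alb, the most abundant hepatocyte secretory transcript described here, had an exonic change of -0.05 ± 0.27 (limma adjusted p = 0.986).

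Among genes with a 2-fold intronic change, the median exonic change was smaller where the transcript was more abundant. Among the 311 genes whose introns fell by 2-fold or more, the median exonic log2 fold change was -0.57 for 69 genes under 2 FPKM in Hypox, -0.39 for 104 genes from 2 to 10 FPKM, -0.21 for 98 genes from 10 to 50 FPKM and -0.06 for 40 genes at 50 FPKM or more. The intronic medians of the same genes were -1.41, -1.38, -1.38 and -1.71. Among the 209 genes whose introns rose by 2-fold or more the exonic medians were 0.91 for 78 genes under 2 FPKM, 0.66 for 95 genes from 2 to 10 FPKM and 0.38 for 33 genes from 10 to 50 FPKM, and the last 3 genes had a median of 0.3. Their intronic medians in the same order were 1.49, 1.35, 1.3 and 2.47. The Hypox level that sorts the genes also enters their exonic change, so this is a description with no test. Genes under 2 FPKM in Hypox also include some, such as Cish, that reached 0.5 FPKM in only 1 of the 2 groups. The exonic change of such genes is partly built into the choice of genes. Exonic calls in the direction of the introns numbered 2 of 69, 6 of 104, 4 of 98 and 0 of 40 for the falls, and 26 of 78, 25 of 95, 3 of 33 and 0 of 3 for the rises.

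**Figure D4:**
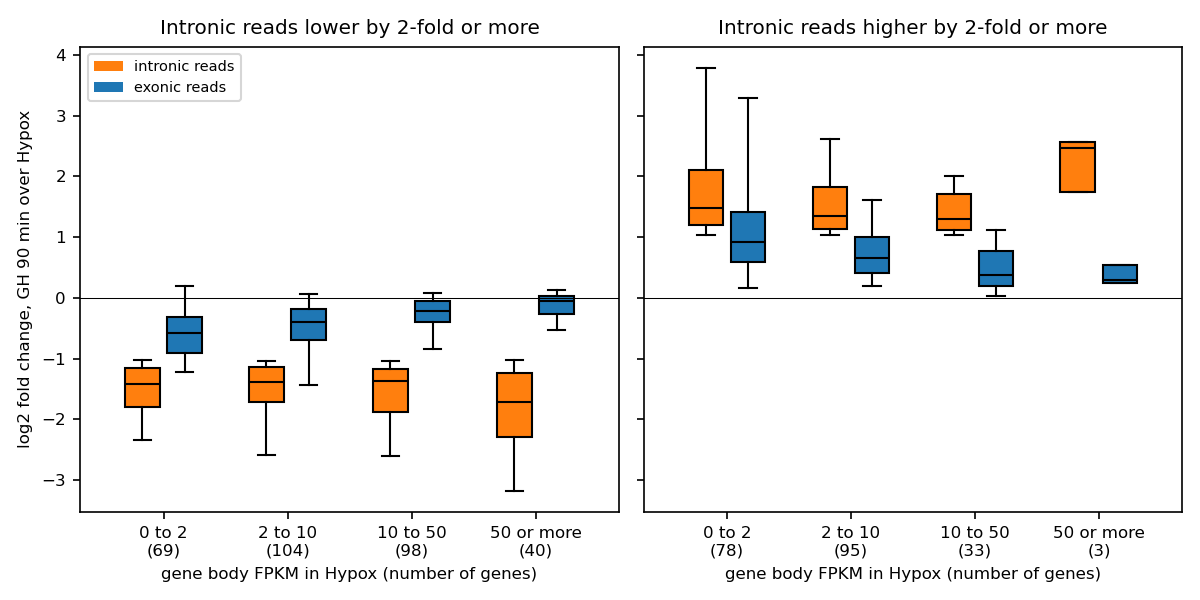
Log2 fold change of GH 90 min over Hypox in intronic (orange) and exonic (blue) reads of genes whose introns fell (left) or rose (right) by 2-fold or more, by gene body FPKM in Hypox. Boxes span the quartiles with the median as a line, whiskers reach from the 5th to the 95th percentile, and the exonic boxes approach 0 at higher FPKM while the intronic ones do not.

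The test of exonic minus intronic change called 47 genes higher and 13 lower of 9670 (0.486% and 0.134%). Those with the smallest p included Pck1 at 2.54 ± 0.23, Cyp3a11 at 3.23 ± 0.29, Slc38a4 at 2.44 ± 0.22 and Sds at 2.14 ± 0.20 (limma adjusted p = 0.0138 for each). A positive value means that the exonic log2 fold change lay above the intronic one. Acsl1, at -1.88 ± 0.20, was among those where exons rose less than introns (limma adjusted p = 0.0232). With any of the 4 libraries left out, which leaves 1 library in a group, the calls of this test were lost. With every library, 1212 of the 9670 genes had an unadjusted limma p under 0.05, a level that some genes pass without any difference. The calls depended on settings as well as on libraries. With every library in the fit, Pck1 had a limma adjusted p of 0.0596 with no filter on low values and 3.87e-05 with a pseudocount of 1. A call in introns alone is not in itself a difference from exons.

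A few genes changed in exons without a call in introns. Some of them, such as Socs1 and the Snora genes below, had no intronic test. Socs1, an inhibitor of JAK kinases with too few intronic reads to test, had 6.98 and 2.77 exonic CPM at GH 90 min, against 0.46 and 0.566 CPM in Hypox (limma adjusted p = 0.0193, and 0.0397 to 0.126 without 1 library, called only without the shallower GH 90 min library). Rnf170, a ubiquitin ligase gene of the endoplasmic reticulum, had 15.4 and 15.1 exonic CPM at GH 90 min and 71.7 and 61.7 CPM in Hypox, with an intronic change of -0.21 ± 0.21 (exonic limma adjusted p = 0.0218, lost without each library at 0.111 to 0.193). The exonic minus the intronic change of Rnf170 was -1.91 ± 0.40 and did not pass its test (limma adjusted p = 0.104). Of 15 Frizzled and Wnt signalling genes 2 rose and 2 fell in exons, and of 11 tested in introns 0 rose and 1 fell. Fzd7 and Fzd4, receptors of Wnt ligands, rose by 1.66 ± 0.23 and 0.99 ± 0.12 (limma adjusted p = 0.0125 and 0.00884), and both calls were lost without each library (0.063 to 0.131 and 0.0515 to 0.0882). Fzd5, another such receptor, and Rnf43, a ubiquitin ligase that removes Frizzled receptors, fell in exons by 0.91 ± 0.17 and 1.02 ± 0.20 on the log2 scale (limma adjusted p = 0.0406 and 0.047). These falls were likewise lost without each library in exons (0.139 to 0.289 and 0.0732 to 0.397). Rnf43 was called lower in introns as well, but not without either shallower library. Of 93 small nucleolar RNA genes 43 were tested and 3 fell in exons, Snora23, Snora64 and Snora81, each lost without every library. Snora genes lie in introns of other genes whose reads they may share.

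In the authors' deposited table, 207 of the described genes were higher and 144 lower in exons at an adjusted p under 0.05 (1.89% and 1.32%, against 0.913% and 0.686% of all genes in that table). In introns 471 were higher and 618 lower there (4.3% and 5.65%, against 2.11% and 3.09% of all genes). All 105 exonic calls made here and 826 of the 852 intronic calls had a call of the same sign there, and 0 had the opposite sign. Some genes not called in exons here were called in exons there. Igf1, Igfals and Acsl1 were higher (the authors' adjusted p = 1.34e-09, 3.09e-07 and 0.00165), and Tat and Pck1 were lower (2.66e-06 and 0.0324). Etnppl, Cth and Cyp3a11 were not called in exons there either.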

How the data were processed

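Total liver RNA of 8 libraries in 4 groups was sequenced (strand-specific NEBNext libraries, ribosomal RNA partly depleted, per the labels' protocols). The submitters' processing notes name TopHat2, featureCounts, edgeR and build mm9, without versions. The authors deposited the mean FPKM of the 2 libraries of each group over the gene body, an intronic signal in the same unit, and for each time against Hypox a ratio and an adjusted p-value, per the file headers. The rules for exonic and intronic reads and any use of strand are not given in the sources used here, so overlapping and antisense genes may share reads.

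Whole reads per library were recovered from the group means by arithmetic, because a group mean is built from 2 whole read numbers, and the mapped totals used were those, found from the values, at which the genes came out whole. Of 18359 genes with a gene body value 18359 (100.0%) gave whole exonic reads, and in introns 16721 of 17098 (97.8%) did. The exonic length of genes with intronic values was itself found by a search at these totals. A further check drew 1000 genes from those that had come out whole, so 1000 of 1000 at the totals used was given in advance. With every total moved by 1000 reads, and the lengths kept rather than searched again, 0 of 1000 came out whole. Read numbers made for a separate check came back exactly in 1000 of 1000 cases. Exonic reads made up 25.1% to 26.6% and intronic reads 15.0% to 17.7% of mapped reads.

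Reads were divided by mapped reads, scaled by median-of-ratios factors over genes averaging 50 reads or more (0.916 to 1.05 exonic, 0.859 to 1.07 intronic), and log2(CPM + 0.1) was fitted with limma 3.58.1 (R 4.3.3, trended variance) over all 8 libraries, contrast GH 90 min minus Hypox, for genes reaching 10 reads in 2 libraries or more. A fold change on this scale understates the change of low genes. Exonic, intronic and exonic minus intronic values were fitted separately, with two-sided p-values adjusted by Benjamini-Hochberg over 13170, 12237 and 11498 genes tested, and called at an adjusted p under 0.05. A total of 387 of the 10947 genes did not pass the filter in exons and 1272 had no intronic test. Residual degrees of freedom were 4 and the median standard error was 0.196 in exons and 0.24 in introns. The fit was tested on simulated data. The genes named were chosen by rule. Up to 15 rises and falls of greatest size in exons and in introns were taken, with an adjusted p under 0.05, a 2-fold change and separated groups. Up to 5 a direction were taken by p for exonic minus intronic change, and the called genes of each list. Added to these were up to 5 a direction called by the authors alone and the 5 most abundant called a direction. A fixed set of 13 genes, made up of GH pathway genes and Alb, was always named. Genes and lists were chosen with earlier results of these data known. Alternatives were other scalings, another pseudocount, no filter, limma-voom, the 2 groups alone, the described genes alone and each library left out. Gene coordinates are those of the authors' table in mm9.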

Additional observations from a re-analysis of the deposited data

How the results depend on the processing

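No paired analysis was possible because the table holds group means, and the libraries recovered from them carry no pool number. With 1 library left out, genes higher in exons numbered 8 to 18 over all genes (83 with every library) and 8 to 18 over the described genes (77), and genes lower in exons 0 to 5 in both (28). In introns genes higher numbered 155 to 224 (401) and 151 to 219 among the described genes (383), and genes lower 159 to 320 (526) and 149 to 295 (469). For exonic minus intronic change the counts were 0 to 0 in both directions.

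With no filter on low values, 54 genes were higher in exons (51 of those described) and 12 lower (12), and 0 were called either way for exonic minus intronic change. With GH 90 min and Hypox fitted alone 53 genes were lower in exons (52 of those described), and 33 were higher and 7 lower (7 of those described) for exonic minus intronic change. With the described genes alone that last test called 97 higher and 43 lower, and with a pseudocount of 1 it called 246 higher and 100 lower (230 and 97 of those described), against 50 and 15 (47 and 13). The authors' deposited adjusted p gave 221 higher and 166 lower genes in exons (207 and 144 of those described). The cause of these shifts was not tested, except that a left-out library lowers the number of samples and the described genes alone lower the number of genes tested.

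Of the 223 single gene results that passed the test, the number that stayed past it was 93 to 109 with 1 library left out, 165 with no filter, 203 with the groups fitted alone, 208 with library totals only, 212 with the described genes alone, 216 with TMM factors and 217 with a pseudocount of 1, and 186 of 199 with limma-voom. No direction turned. Other scalings shifted the median change over all tested genes by up to 0.044 (log2). With 2 pools a group, changes of small size in exons may be missed, and the shallower GH 90 min library, of 15935303 mapped reads, gives the least precise values of low introns.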
